A study of Homo sapiens with 6 samples.

Results

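Of 22216 SON peaks mapped in untreated IMR90 cells, 2942 were listed again after 3 and after 6 days of treatment and overlapped no HMGB2 peak. They made up 13.2% of the untreated peaks on chromosomes 1 to 22 and X, with an exact 95% interval of 12.8% to 13.7%. A peak was a member when at least 1 bp of it overlapped a peak of the 3-day list and a peak of the 6-day list and no base of it overlapped an HMGB2 peak. They are called persistent SON peaks without HMGB2 here, and persistence means only that a peak was listed at all 3 times. The members were chosen by presence or absence of a called peak in the 4 lists, so the strength of the members and their distance from HMGB2 are given as descriptions.

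The series mapped SON and HMGB2 on chromatin to ask how they relate to CTCF, to genome folding and to gene expression, and its title names senescent cells, nuclear speckles and splicing. The cells were IMR90, fibroblasts grown from human embryonic lung. ChIPmentation was used, in which a transposase cuts chromatin held by an antibody and adds the sequencing adapters in the same step. Of 6 samples, 4 gave a peak list: SON in untreated cells, SON after 3 days and after 6 days of a treatment the labels call ICM without spelling it out, and HMGB2 in untreated cells, 1 list each. Formaldehyde alone fixed the SON samples, whereas the HMGB2 cells first received EGS, a crosslinker of longer reach, so a contrast between SON and HMGB2 also contrasts fixations. HMGB2 was listed in untreated cells only, and its presence at 3 and 6 days is not known here. The other samples, an input for HMGB2 and 1 with DSG in its title, were not analysed here.

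SON is a large RNA-binding scaffold protein at the core of nuclear speckles, bodies rich in splicing factors near which many active genes lie. It promotes splicing of transcripts with weak splice sites. HMGB2 is an abundant DNA-bending protein of the high mobility group, known to decline as fibroblasts become senescent. NRF1, whose binding motif returns below, is a transcription factor of CpG-rich promoters that drives genes of mitochondrial respiration and many housekeeping genes. NF-Y binds the CCAAT box, and CTCF is the insulator protein that anchors chromatin loops with cohesin.

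The promoters below belong to the 5 members with the highest mean rank over the 3 SON lists among those that met a promoter, and they show the letters that the results on motifs count. They are RefSeq sequence of GRCh38.p14, 5′ to 3′ on the gene's strand, and end at the base before the transcription start. For CHKB, the bases covered by an overlapping read-through transcript were left off. Capitals mark matches, on either strand, to the NRF1 motif GCGCANGCG, the CCAAT box of NF-Y, the CTCF motif core AGNNGGCGC or the ZBTB33-type motif CTCGCGAG.
FAF2, chr5:176448135-176448384, plus strand: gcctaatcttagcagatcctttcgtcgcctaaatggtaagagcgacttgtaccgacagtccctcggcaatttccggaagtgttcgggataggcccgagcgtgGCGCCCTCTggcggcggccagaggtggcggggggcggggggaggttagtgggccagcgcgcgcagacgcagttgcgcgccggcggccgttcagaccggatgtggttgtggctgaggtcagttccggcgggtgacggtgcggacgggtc
PHF12, chr17:28951519-28951768, minus strand: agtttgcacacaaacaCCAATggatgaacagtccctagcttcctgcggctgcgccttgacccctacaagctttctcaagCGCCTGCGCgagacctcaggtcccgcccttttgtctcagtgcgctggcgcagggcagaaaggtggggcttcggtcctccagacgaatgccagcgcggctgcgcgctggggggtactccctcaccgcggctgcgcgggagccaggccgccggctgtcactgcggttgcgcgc
CHKB, chr22:50583000-50583099, minus strand: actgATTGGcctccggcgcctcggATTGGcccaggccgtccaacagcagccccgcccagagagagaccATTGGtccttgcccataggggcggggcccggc
MARK2, chr11:63838860-63839109, plus strand: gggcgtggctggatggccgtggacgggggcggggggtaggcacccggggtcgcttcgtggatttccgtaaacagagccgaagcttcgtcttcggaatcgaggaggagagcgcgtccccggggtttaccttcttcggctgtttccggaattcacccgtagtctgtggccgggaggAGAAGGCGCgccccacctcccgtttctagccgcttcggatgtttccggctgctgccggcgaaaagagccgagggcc
TMEM143, chr19:48363941-48364190, minus strand: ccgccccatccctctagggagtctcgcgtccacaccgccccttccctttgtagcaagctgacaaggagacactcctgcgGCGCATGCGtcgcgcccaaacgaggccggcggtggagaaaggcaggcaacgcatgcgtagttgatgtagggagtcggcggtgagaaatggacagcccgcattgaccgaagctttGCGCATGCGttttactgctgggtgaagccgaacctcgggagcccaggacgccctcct

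In these stretches PHF12 held 1 NRF1 match and TMEM143 held 2. FAF2 and MARK2 each held 1 match to the CTCF core and none to NRF1. CHKB held 3 CCAAT boxes in its printed bases, and none to NRF1.

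The next lines give the NRF1 match, in capitals, with its flanks in the 6 strongest members whose promoter held one upstream of the start. They are shown because that motif was more frequent in the members' promoters than in those of the other 2 classes of SON peaks compared.
PHF12, chr17:28951671-28951699, minus strand: ctttctcaagCGCCTGCGCgagacctcag
TMEM143, chr19:48364093-48364121, minus strand: cactcctgcgGCGCATGCGtcgcgcccaa
MAP2K7, chr19:7903664-7903692, plus strand: tcgggaattgGCGCATGCGcactacggtg
FXR2, chr17:7615039-7615067, minus strand: atcttgttctGCGCAAGCGctagcaagcg
HNRNPH1, chr5:179623870-179623898, minus strand: tcgcgggaagGCGCAGGCGcaacaaaaag
LRRC27, chr10:132332065-132332093, plus strand: acacccccgcGCGCAGGCGcaccacaccc

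The first base of these NRF1 matches lay between 118 bp (LRRC27) and 217 bp (HNRNPH1) upstream of the start. PHF12 is a subunit of a histone deacetylase corepressor complex, MAP2K7 a kinase that activates JNK, FXR2 an RNA-binding protein of the fragile X family, and HNRNPH1 a regulator of splicing. The FXR2 stretch lies inside the neighbouring gene SHBG, and the LRRC27 stretch lies inside STK32C. A match describes letters and is not a measured binding site of NRF1.

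Members ranked high in the untreated list and near the middle of the last list. Strength is the authors' −log10 p of each peak, the lower of the values of 2 replicates, and it ranks peaks within a list. Values from different lists are set side by side below, but they also move with depth, which is unknown, so a higher or lower value in another list is no measure of more or less SON. In the untreated list the members ran from 4.10 to 673 with a median of 18.7 (quartiles 12.5 to 28.5), which put the median member at percentile 81.8. At 3 days they ran from 4.47 to 660 with a median of 11.2 (quartiles 8.42 to 17.6), at percentile 66.8. At 6 days they ran from 4.30 to 229 with a median of 8.85 (quartiles 7.29 to 11.03), at percentile 55.1. The members therefore stood well above the middle of the untreated list and close to the middle of the 6-day list. The lists shortened from 22216 to 11028 and 5481 peaks, their depth is unknown, and loss of SON and a shallower library cannot be told apart for a peak that is not listed later.

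The rule kept stronger peaks. The members took 2.32%, 4.25%, 8.08%, 15.8% and 35.7% of the untreated list from class 1 (weakest) to class 5 (strongest) when the list was cut into 5 classes of equal size by strength. Of all untreated peaks 19.1% were listed at both later times and 83.5% lacked HMGB2, and among the peaks listed at both later times 69.3% lacked HMGB2. The 1301 persistent peaks with HMGB2 were stronger, with medians of 29.3, 17.4 and 9.70 in the 3 lists. The 10436 peaks without HMGB2 that were listed in neither later list had an untreated median of 7.81. An irreproducible discovery rate (IDR, the expected share of peaks that do not repeat between replicates) of at most 0.05 was reached by 86.0% of the members without treatment, by 58.8% after 3 days and by 15.7% after 6 days. The listing at 6 days was thus the least repeatable of the 3. Both replicates carried the identical −log10 p at 63.3%, 29.4% and 7.58% of the members in the 3 lists. How the replicates were made is not given in the sources used here, and they are not taken as independent.

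**Figure D1:**
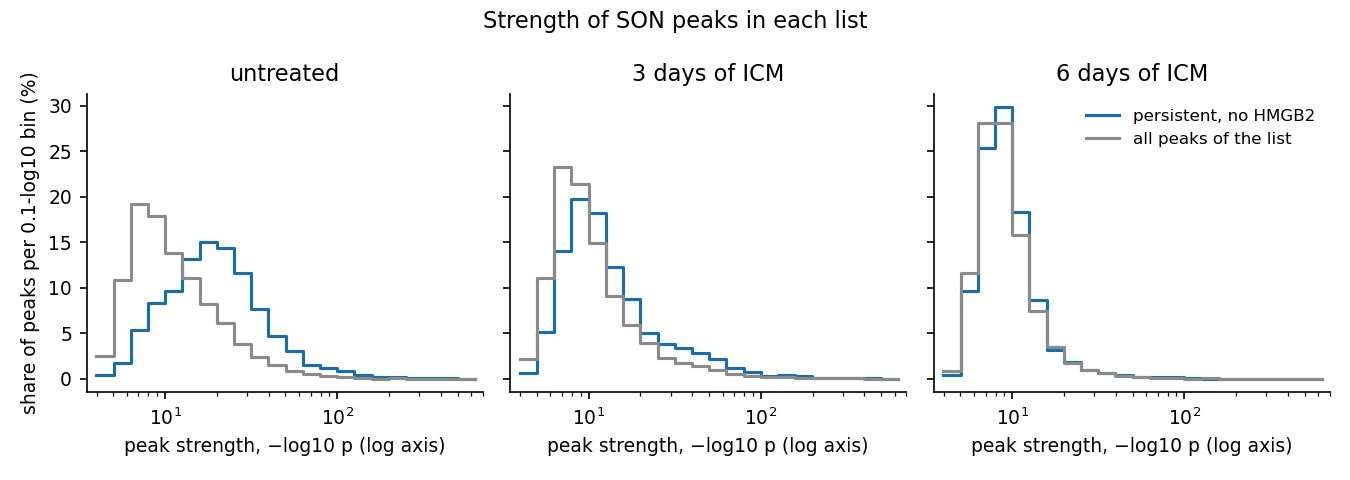
Share of peaks (vertical axis, percent) by strength (horizontal axis, −log10 p, log scale) in the untreated, 3-day and 6-day SON lists, for the 2942 persistent peaks without HMGB2 (blue) and all peaks of the list (grey). The blue curve is shifted to higher strength in the untreated list (median 18.7) and nearly covers the grey one at 6 days (median 8.85).

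The strongest member over the 3 lists lay at the start of FAF2, a ubiquitin-domain protein of endoplasmic reticulum-associated degradation. Its −log10 p was 809 and 673 in the untreated replicates, 464 and 464 at 3 days and 373 and 189 at 6 days. At MARK2, a kinase of cell polarity, the values were 493 and 436 untreated, 199 and 199 at 3 days and 165 and 114 at 6 days. Both starts ranked near the top of each list.

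The second strongest member lay at the start of PHF12. Its −log10 p was 364 in both untreated replicates, 660 and 1344 at 3 days and 229 and 362 at 6 days. The 3-day replicates were far apart here, while the untreated ones carried the same value. The third was a member on chromosome 7 (chr7:148862-149743) that met no protein-coding gene and lay 23428 bp from the nearest end of one. Its values were 313.4 and 313.4 untreated, 494 and 1204 at 3 days and 97.9 and 273 at 6 days. The fifth was a member 6177 bp from a protein-coding gene end on chromosome 19 (chr19:6199268-6200088), with 217 and 217, 419 and 847, and 85.3 and 177. CHKB, which encodes choline kinase beta, had 439 and 439 untreated, 280.4 and 286 at 3 days and 159 and 105 at 6 days. Of these 6 peaks, 4 lay at a protein-coding start and 2 met no protein-coding gene.

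The summit of a member barely moved between lists, although the rule asked for 1 shared base only. From the untreated to the 3-day list the summits lay a median of 25 bp apart (quartiles 11 to 48), and 94.97% lay within 100 bp. From the untreated to the 6-day list the median was 29 bp (quartiles 14 to 54), and 93.4% lay within 100 bp. Summits of the 2 untreated replicates lay a median of 14 bp apart and those of the 6-day replicates 26 bp, so the shift between times was close to the spread between replicates at 6 days. The persistent peaks with HMGB2 had medians of 24 bp and 28 bp. Widths were also alike, with medians of 512, 489 and 435 bp in the 3 lists.

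The gap from a member to HMGB2 is given as a description, because the rule removed overlaps and no other peaks were measured beside the members. The median gap to the nearest HMGB2 peak was 122 kb (quartiles 37.2 to 380 kb), 43 members or 1.46% had one within 1 kb and 224 or 7.61% within 10 kb. The members nearest to the limit of the rule were at the start of DYNC1I2, a dynein subunit, with a gap of 49 bp, in ECE1 with 97 bp, and at the start of AFG3L2, a mitochondrial protease, with 129 bp. On the other side of the limit, the smallest overlaps with HMGB2 among persistent peaks were 150 bp in the collagen gene COL5A2, 160 bp at the start of ALKBH7 and 165 bp in LNX1. Their untreated −log10 p was 42.3, 6.89 and 24.9 inside the limit and 7.70, 27.4 and 12.5 outside it.

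About 1 in 3 members lay at a gene start, and the persistent peaks with HMGB2 did so more often. Gene starts were counted without chromosome 8, where 125 members lie. Within 1 kb of a protein-coding start lay 906 of 2817 members, 32.2% (exact 95% interval 30.4% to 33.9%), beside 29.5% of all untreated peaks. Among persistent peaks with HMGB2 the share was 59.1% (751 of 1271, 56.3% to 61.8%), and among peaks without HMGB2 found in neither later list it was 17.5% (1742 of 9936, 16.8% to 18.3%). The members were thus 26.9 percentage points below the persistent peaks with HMGB2 (difference −26.9, Newcombe 95% interval −30.1 to −23.7) and 14.6 points above the peaks not found later (12.8 to 16.5). With an IDR of at most 0.05 in all SON lists 390 members were left, 59.6% lay at a start, and the differences were −12.7 and 36.4 points. All classes were formed anew there, so a peak listed later with a higher IDR counted as not found later. That class then held 7353 peaks, 23.2% of them at a start. Neighbouring peaks are not independent, and these intervals and those below cover counting error only.

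The 2 differences did not behave alike within classes of untreated strength. For the odds ratios, 5 classes of untreated strength were cut among the peaks of each contrast. The odds ratio of a gene start at members relative to persistent peaks with HMGB2 was 0.328 without classes. Over the classes the Mantel-Haenszel odds ratio was 0.527 (95% interval 0.453 to 0.612), still below 1. Relative to the peaks not found later the odds went from 2.23 to 1.11 (0.974 to 1.27), an interval that includes 1. In classes of the whole untreated list, from class 1 to class 5, 12.8%, 7.43%, 10.6%, 15.5% and 48.3% of the members lay at a start. The peaks not found later had 14.4%, 17.4%, 19.1%, 21.7% and 26.5%. In the 4 weaker classes the members were at or below these peaks, and in the strongest class they were above them. Strength was not matched inside that class, which held 1531 members and 223 peaks not found later. Untreated strength reached 673 among the members and 35.6 among the peaks not found later.

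**Figure D2:**
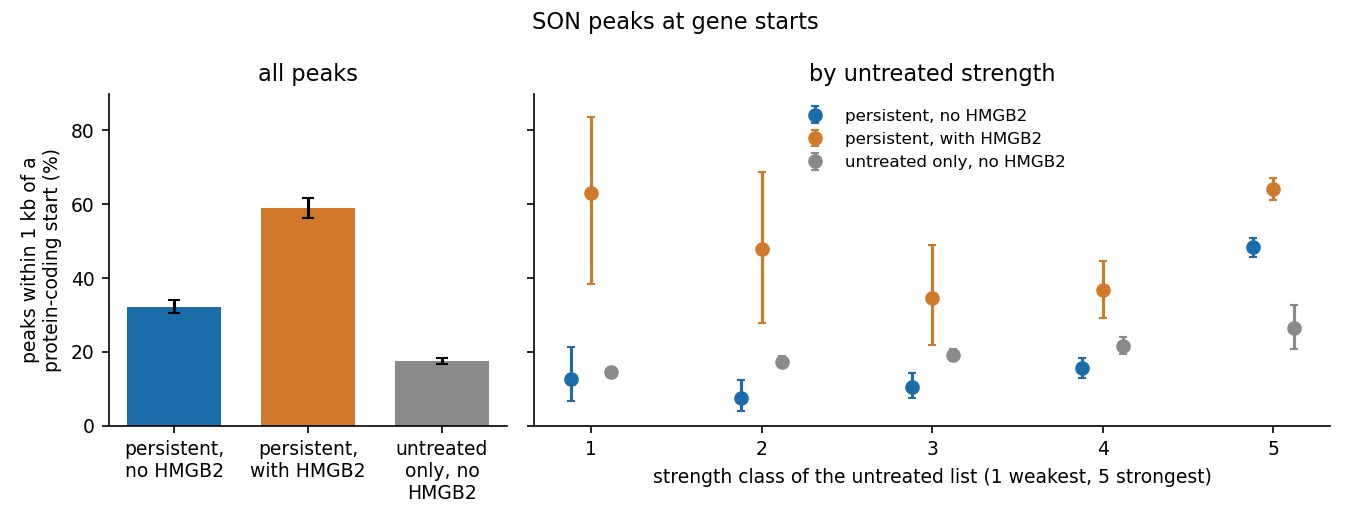
Share of SON peaks within 1 kb of a protein-coding start (vertical axes, percent, chromosome 8 not used), over all peaks of each class (bars) and by strength class of the untreated list (points), with exact 95% intervals. Persistent peaks without HMGB2 (blue) sit at 32.2% over all strengths, below the persistent peaks with HMGB2 (orange, 59.1%) and above the peaks not found later (grey, 17.5%), and exceed the grey points in the strongest class only (48.3% against 26.5%).

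The members at a start were the strong ones. Those within 1 kb of a start (n = 906) had median −log10 p of 30.5, 21.0 and 9.68 in the 3 lists, and those farther away (n = 1911) had 15.9, 9.80 and 8.70. At promoters the untreated summit lay a median of 104 bp upstream of the start (median −104 bp, quartiles −162.5 to −61). Away from starts, many members lay deep in genes or between them. Of all 2942 members 69.1% overlapped a protein-coding gene, 51.5% were over 10 kb from any end of one, and 24.1% were both outside protein-coding genes and over 10 kb from their ends. The corresponding shares were 79.3%, 23.9% and 11.3% for the persistent peaks with HMGB2, and 62.1%, 63.9% and 29.3% for the peaks not found later.

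Few persistent peaks overlapped genes of short RNAs, and those with HMGB2 did so more often. Only 7 members, 0.238%, overlapped a tRNA or snRNA gene, against 31 or 2.38% of the persistent peaks with HMGB2, a difference of −2.14 points (−3.13 to −1.40). These genes encode transfer RNAs and the small nuclear RNAs of the spliceosome. Among peaks not found later the share was 0.326%, and the difference from the members was −0.0879 points (−0.266 to 0.181), an interval that includes 0. Neither contrast was compared within classes of strength or width. Median untreated width was 512 bp for the members, 600 bp for the persistent peaks with HMGB2 and 352 bp for the peaks not found later. Starts of long non-coding RNA genes lay within 1 kb of 9.55% of the members, 15.2% of the persistent peaks with HMGB2 and 5.83% of the peaks not found later.

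The NRF1 motif was more frequent in the members' promoters than in those of both other classes. A promoter is here the window from 250 bases before to 50 after a protein-coding start in a RefSeq table, which covered 15812 of 19974 protein-coding genes. Members met 1178 windows of 1017 genes, 6.43% of the genes with a window. Of these windows 512 held the NRF1 motif, 43.5% (40.6% to 46.4%), beside 9.66% of all 22132 windows. Among windows met by any untreated SON peak 21.3% held it. The share was 27.4% (273 of 998) at persistent peaks with HMGB2 and 8.96% (166 of 1853) at peaks not found later. The members were 16.1 points above the former (12.1 to 20.0) and 34.5 points above the latter (31.4 to 37.6). The promoters of peaks not found later were thus near the share of all promoters and below that of windows met by any untreated SON peak. Of 886 NRF1 matches in the members' windows, 25 overlapped another motif of the 12 searched.

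The NRF1 difference was still seen within classes of untreated strength and within classes of promoter CpG content. Strength can differ inside a class, and strength at 3 and 6 days was not used to form classes. With 1 window for each peak, 413 of 871 members at promoters held the motif, 47.4%, against 28.3% (203 of 717) and 9.02% (134 of 1486). Over 5 classes of untreated strength the Mantel-Haenszel odds ratio was 2.43 (1.96 to 3.01) against the persistent peaks with HMGB2 and 11.01 (7.15 to 16.9) against the peaks not found later. Over 5 classes of CpG observed over expected it was 2.19 (1.76 to 2.71) and 8.22 (6.56 to 10.3). The median CpG observed over expected was 0.898 in the members' windows, 0.875 and 0.852 in the other classes and 0.738 over all windows, and the median GC was 65.0%, 63.5%, 65.0% and 62.3%.

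The CCAAT box ran the other way between the persistent peaks. It was in 41.3% of the members' windows and 58.7% of those of the persistent peaks with HMGB2, a difference of −17.5 points (−21.6 to −13.3), beside 34.6% of all windows. The odds ratio within strength classes was 0.453 (0.370 to 0.556). Against the peaks not found later, at 36.2%, the members were 5.04 points higher (1.49 to 8.61), but within strength classes the odds ratio was 0.948 (0.707 to 1.27), an interval that includes 1.

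The CTCF core, searched because the series asks about CTCF, did not separate the classes. It was in 15.3% of the members' windows, 16.9% of those of persistent peaks with HMGB2 and 15.8% of those of peaks not found later, beside 12.8% of all windows. The differences were −1.65 points (−4.78 to 1.43) and −0.478 points (−3.08 to 2.21), and both intervals include 0. These 9 letters are part of the CTCF motif and this count bears on promoters alone, so nothing follows from it for CTCF at the members away from promoters.

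The other 9 motifs differed by under 5 points in each contrast. The ETS motif CCGGAAGT was in 12.3% of the members' windows, 5.35% of all windows and 7.62% with HMGB2, the last a difference of 4.69 points (2.17 to 7.19), but in 13.4% at peaks not found later. The ZBTB33-type motif was in 3.90%, 1.80% and 2.54% (1.38% of all windows), and the ZNF143-type motif CTACAATTC in 1.44%, 0.401% and 0.540% (0.361% of all). In both cases the members were the highest of the 3 classes, with intervals of the differences above 0. The letters TATAAA, the TATA box, were least frequent at the members, in 2.63% of the windows against 5.31% and 5.45%, beside 9.46% of all windows (differences of −2.68 points, −4.43 to −1.04, and −2.82 points, −4.19 to −1.38). The GGGCGG motif of SP and KLF factors was in 70.6%, 75.5% and 71.1%, and 56.3% of all windows, and the members were below the persistent peaks with HMGB2 (difference −4.82 points, −8.52 to −1.08). For YY1 (AANATGGCG), CREB and ATF (TGACGTCA), the E-box (CACGTG) and AP-1 (TGANTCA) the members held 11.1%, 3.90%, 12.1% and 3.82%, beside 4.25%, 2.26%, 8.34% and 6.15% of all windows, and their differences from the persistent peaks with HMGB2 had intervals that include 0. Against the peaks not found later YY1 was 2.70 points higher (0.553 to 4.96), and the intervals of the other 3 include 0. All 12 motifs were searched on both strands, with no adjustment of the intervals for their number.

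**Figure D3:**
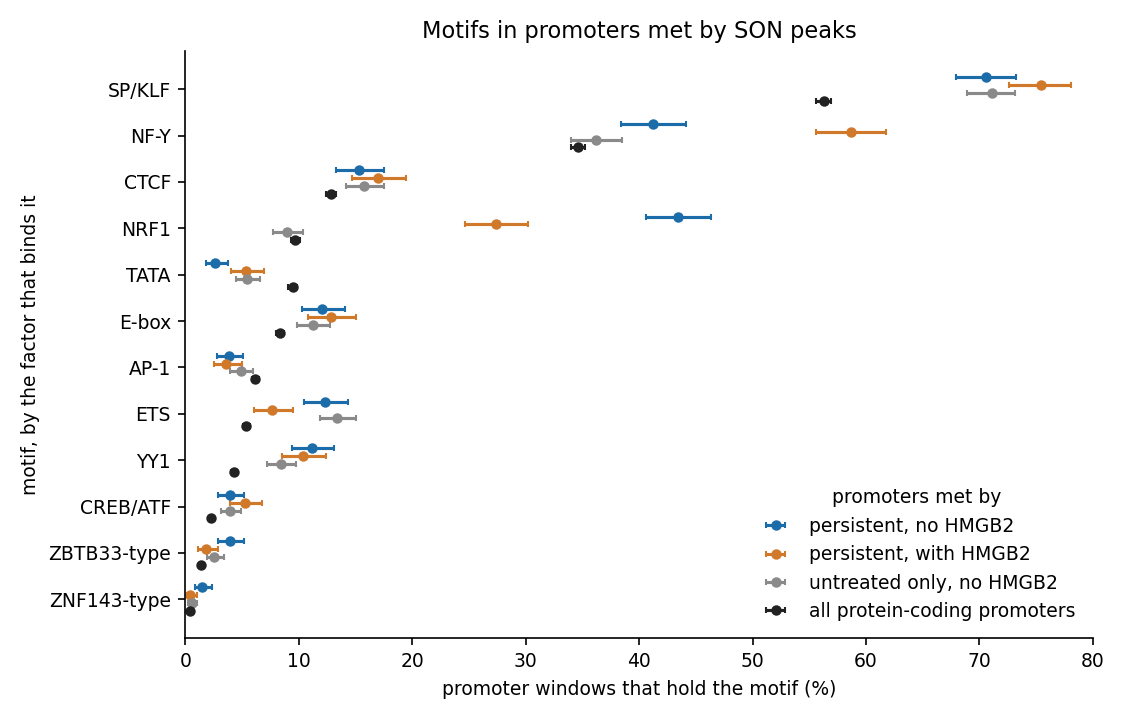
Share of promoter windows that hold each of 12 motifs (horizontal axis, percent, exact 95% intervals), for windows met by persistent SON peaks without HMGB2 (blue), persistent peaks with HMGB2 (orange), peaks not found later and without HMGB2 (grey) and all protein-coding promoters (black). The blue point lies above the others at NRF1 (43.5% against 27.4%, 8.96% and 9.66%), and the orange point lies above the blue one at NF-Y (58.7% against 41.3%).

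Listing at both later times is part of the rule, so what follows restates part of the comparison above and is no separate support. It counts promoter peaks without HMGB2, with and without the motif, by whether they were listed later. Of 962 such untreated peaks with the NRF1 motif, 413 or 42.9% were listed at 3 and 6 days, and 86.1% were listed at 3 days. Of 3040 without the motif, 458 or 15.1% were listed at both times and 55.2% at 3 days. Both sets together were cut into 5 classes of equal size by untreated strength, separately from the classes of the whole list. In the strongest class 85.5% of the peaks with the motif and 63.8% of those without it were listed at both times. In the next class these shares were 38.5% and 17.5%, and in the weakest 8.26% and 1.30%. Strength still differed inside the strongest class, with untreated medians of 38.5 with the motif and 32.3 without it. The share with the motif was thus the higher in these classes and in the 2 between, at 15.1% against 4.62% and 9.21% against 2.62%.

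Within the 3-day list, members with the motif ranked above members at promoters without it. The median −log10 p of the 413 members with the NRF1 motif was 32.9 untreated, 31.8 at 3 days and 10.6 at 6 days. For the 458 without it the medians were 29.05, 16.6 and 9.003. As percentiles of their list, the medians with the motif were 94.5, 94.3 and 73.7, and those without it 92.7, 83.6 and 57.1. At 3 days the quartiles were 19.2 to 49.6 with the motif and 12.01 to 24.3 without it, so the sets overlapped. Among the members at promoters ranked by mean percentile, the top 50 held the motif in 35, the top 100 in 70 and the top 200 in 142, against 413 of all 871.

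**Figure D4:**
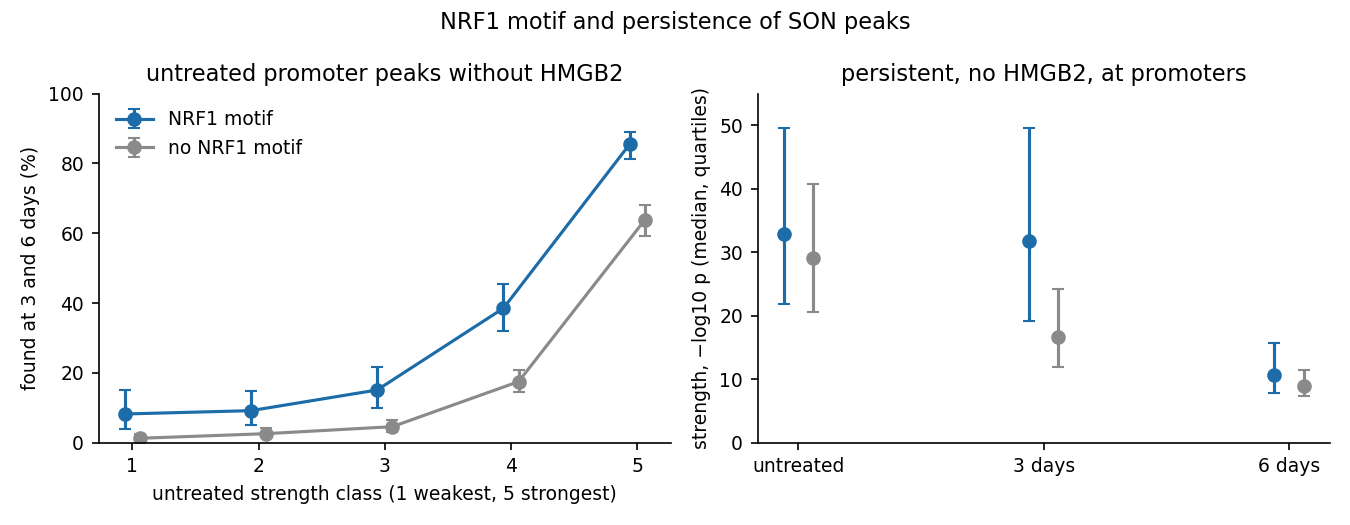
Left, share of untreated promoter peaks without HMGB2 that were listed at 3 and 6 days (vertical axis, percent, exact 95% intervals). The horizontal axis is the class of untreated strength, cut among these promoter peaks, with (blue) and without (grey) the NRF1 motif. Right, strength of the members at promoters in each list (−log10 p, median with quartiles). The blue points lie above the grey ones in each class (85.5% against 63.8% in the strongest), and in the 3-day list the blue median (31.8) lies above the grey one (16.6).

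Values at single promoters with the motif follow. At the start of TMEM143, which SYNGR4 shares in the other direction, the −log10 p was 213 in both untreated replicates, 330.3 and 1015 at 3 days and 85.4 and 164 at 6 days. At MAP2K7 the lower of the 2 replicate values was 203 untreated, 361 at 3 days and 67.6 at 6 days. At FXR2 it was 168, 283 and 55.1. At LRRC27 it was 149, 245 and 47.4. These promoters were named by rank over all 3 lists, so their high values entered the choice.

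Distances from the NRF1 match to the SON summit were set beside those of other motifs. Its median distance from the summit was 47, 46 and 52 bp in the untreated, 3-day and 6-day lists, and 53.8% of the matches nearest to a summit lay within 50 bp of the untreated one. For the CCAAT box the medians were 46, 52 and 53 bp, and for the SP and KLF motif 59.5, 57.5 and 60.5 bp. The distances for NRF1 and the CCAAT box were thus much alike. Only the promoter window was searched, the peak had to overlap it, and the nearest match was kept. The window, the peak's width and that choice limit the distances, so short ones show no particular closeness.

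Promoters of many spliceosome genes were met by members. Differences between gene lists were not tested, and counts are read beside the 6.43% of all genes with a window whose promoter met a member. Members met 15 of 49 spliceosome core genes, 30.6%, and persistent peaks with HMGB2 met 8, against 5.36% of all genes. Any untreated SON peak met 47 of the 49, beside 40.4% of all genes. Among genes whose promoter met any untreated peak, members met 31.9% of the spliceosome genes and 15.9% of all (1017 of 6384). Below, 3 values per gene are the untreated, 3-day and 6-day −log10 p. PRPF19, a ubiquitin ligase of the spliceosome, had an untreated −log10 p of 137, with 93.4 at 3 days and 36.7 at 6 days. CDC5L, its partner in the same complex, had 93.3, 69.0 and 17.8, and its promoter held both the NRF1 motif and a CCAAT box. The helicase DDX23 had 53.4, 16.4 and 10.5, and USP39, a tri-snRNP factor, had 53.2, 36.7 and 7.71. SF3B1, SF3B2, SF3B5 and SF3A2, proteins of the U2 particle, were met as well. With an IDR of at most 0.05 in all 3 lists 2 spliceosome genes were left, and with the stronger 50% of each list 8.

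Genes of other RNA-binding families were met too. Members met 6 of 27 hnRNP genes (22.2%) and 5 of 35 speckle and SR protein genes (14.3%), while persistent peaks with HMGB2 met 9 of each list and any untreated peak met 25 and 29. Of the genes met by any untreated peak the members met 24.0% and 17.2%, beside 15.9% over all genes. The speckle and SR protein list was thus close to the share over all genes. HNRNPH1 had 150 untreated in both replicates, 213 and 704 at 3 days and 66.7 and 105 at 6 days. HNRNPM had 31.4, 36.5 and 11.6, HNRNPD 25.1, 11.3 and 8.79, and PTBP2 41.6, 22.1 and 7.45. The SR protein genes SRSF10 and SRSF1, whose products bind exonic enhancers, both held the NRF1 motif, with 119, 108 and 25.2 for SRSF10 and 29.8, 45.6 and 9.77 for SRSF1. CDK12, a kinase of RNA polymerase II, had 53.9, 24.3 and 10.3. NKTR, a cyclophilin with an SR-like domain, had 26.8, 31.9 and 9.02 at a peak that SEC22C shares, and held a CCAAT box.

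Mitochondrial and zinc finger genes, lists chosen after values were seen, were also met above 6.43%. Members met 14 of 69 genes of the respiratory chain and ATP synthase (20.3%; 13 with HMGB2) and 11 of 69 mitochondrial ribosomal protein genes (15.9%; 7 with HMGB2). Any untreated peak met 57 and 59 of them, and of those the members met 24.6% and 18.6%, beside 15.9% over all genes. NDUFA3, a subunit of complex I, had 168, 153 and 47.6, and SDHA, the flavoprotein of complex II, had 49.2, 85.0 and 23.6 at a peak that CCDC127 shares. ATP5PO had 63.0, 49.0 and 26.6, and these 3 promoters held the NRF1 motif. NDUFA6, without it, had 61.5, 49.4 and 15.9. Among mitochondrial ribosomal genes MRPL24 had 148, 61.9 and 30.7, and MRPL54 105, 154 and 42.5. Of 437 genes named ZNF, members met 54 (12.4%) and persistent peaks with HMGB2 met 16 (3.66%). Any untreated peak met 307 of the ZNF genes, and of those the members met 17.6%, close to the 15.9% over all genes. The ZNF genes, which mostly encode repressors with C2H2 fingers, were led by ZNF444 (148, 89.9 and 40.8), ZNF140 (81.5, 7.13 and 8.17), ZNF84 (73.7, 53.9 and 15.8) and ZNF787 (65.4, 50.02 and 18.5).

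Most of the remaining lists were near or below the background of 6.43%. Most were also below the 15.9% found among all genes whose promoter met any untreated peak. Members met 4 of 63 cytosolic ribosomal protein genes (6.35%), while persistent peaks with HMGB2 met 12 and any untreated peak met 61. Of those 61 the members met 6.56%. RPL10 had 53.9, 54.0 and 14.8, RPL22 28.3, 14.2 and 5.44, RPL19 25.5, 19.7 and 8.37, and RPL32 18.2, 9.13 and 6.54. Of 27 proteasome genes 1 was met, PSMA1 (26.0, 11.3 and 7.61), against 5 with HMGB2. Any untreated peak met 24 of the 27, and of those the members met 4.17%. Of 20 genes of CTCF, cohesin and high mobility group proteins 1 was met, the cohesin subunit SMC1A (32.9, 14.9 and 11.1). Any untreated peak met 13 of the 20, and of those the members met 7.69%. Of 18 targets of p53 and genes of cell cycle arrest 2 were met, 11.1%, which is above the background but a small count. Any untreated peak met 9 of the 18, and of those the members met 22.2%, beside 15.9% over all genes. The genes were the DNA damage sensor XPC (42.5, 18.6 and 10.6) and the stress protein SESN2 (39.6, 15.5 and 7.13). None of 26 genes of the secretory phenotype, 32 cell cycle genes silenced in senescence or 19 fibroblast matrix genes had a promoter met by a member, although any untreated peak met 4, 25 and 7 of them. A peak at a promoter is no measure of the gene's expression.

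**Figure D5:**
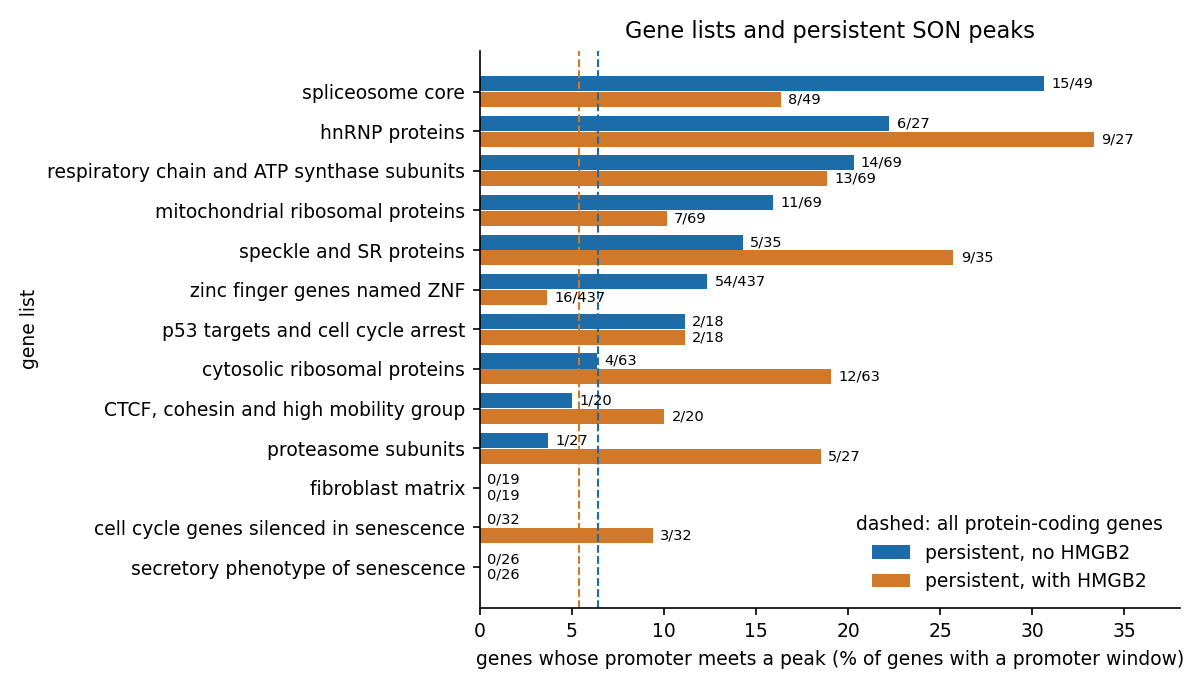
Share of the genes with a promoter window that was met by a persistent SON peak without HMGB2 (blue) or with HMGB2 (orange) for 13 gene lists (horizontal axis, percent, counts beside the bars), with dashed lines at the shares over all protein-coding genes (6.43% and 5.36%). The blue bar is at 15 of 49 genes for the spliceosome core, and differences between lists were not tested.

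Markers of the labelled cell type were checked by any untreated SON peak in the gene or 5 kb around it. Peaks were found at 10 of 12 fibroblast markers, 2 of 8 epithelial, 2 of 6 blood and 2 of 4 endothelial markers. The share of all genes met in this way was not counted, so these counts do not identify the cell type. Members were found at 3 of the fibroblast markers, LUM, DCN and FN1, counts too small to compare between the types.

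Members were spread over all chromosomes. They made up from 9.19% of the untreated peaks on chromosome X (35 members) to 18.9% on chromosome 19 (197 of 1044), with 18.1% on chromosome 21 (49 of 271) and 11.5% and 11.2% on chromosomes 17 and 22. Neighbouring members lay a median of 404 kb apart (quartiles 138 to 1116 kb), and 49 of 2919 distances, 1.68%, were under 10 kb. The fullest bins of 1 Mb were both on chromosome 19, at chr19:2000001-3000000 with 10 members of 32 untreated peaks and at chr19:17000001-18000000 with 9 of 25. Then came 5 bins tied at 8, of which chr19:56000001-57000000 had 8 members among 11 untreated peaks.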

How the data were processed

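IMR90 peak lists were used, 1 per group, with groups taken from titles and treatment labels. Per the submitters' processing notes, reads were handled with bcl2fastq 2.17, Bowtie2, MACS2 and deepTools, without stated roles, and hg38 is named. Aligner settings, controls, read filters and depth are not given in the sources used here. The authors' SON lists have the layout of the IDR tool on 2 replicates, per the file's columns. They give −log10 p per peak and replicate, a −log10 of the global IDR and a score scaled from it. The HMGB2 list, deposited at a q of 0.03 per its peak names, gives −log10 p and −log10 q, a score and the authors' fold enrichment ratio. No read counts were used.

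Peaks on chromosomes 1 to 22 and X were compared by at least 1 bp of overlap. A table of RefSeq genes and promoter windows (GRCh38.p14) gave positions, starts and strand. Its windows are not complete and chromosome 8 was not used for starts or motifs. Shares carry exact Clopper-Pearson intervals and differences Newcombe intervals, at 95%. With 1 list per group no condition was tested and no p is given. The members and the gene lists were chosen with earlier results of these data known, and 3 of 13 gene lists after values were seen. Peaks named are the 6 with the highest mean percentile over the SON lists and the 3 nearest to the HMGB2 limit on each side. Genes named are up to 4 per list by untreated strength, and the U2 proteins and the NRF1 promoters were named besides. Overlaps, intervals and motif search were tested on simulated data. Software was matplotlib 3.10.9, statsmodels 0.14.6, scipy 1.17.1, pandas 2.3.3 and numpy 2.4.6 under Python 3.11.15.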

Additional observations from a re-analysis of the deposited data

How the results depend on the processing

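Of 80 values under alternative settings, 71 kept the sign and the call (for an interval, whether it includes 0 or 1, otherwise a set range around the reported value), 8 moved and 1 had an interval that came to include 1. With an IDR of at most 0.05 in all SON lists, 390 members were left, 59.6% of them at a gene start, with 2 spliceosome genes and a median spacing of 3176 kb. With the stronger 50% of each list, 1198 members were left, 45.3% at a start, with 8 spliceosome genes. Fewer peaks entered both settings by construction, and a peak cut from a later list counted as not found there. Either gene end in place of the start gave 34.7%. Within strength classes the odds ratio for gene starts against peaks not found later was 1.11. The NRF1 difference stayed between 16.1 and 23.7 points against persistent peaks with HMGB2 and between 34.5 and 49.3 against peaks not found later, and the NF-Y difference between −25.1 and −17.5. The gene-start differences kept their sign but ranged from −28.5 to −12.7 and from 14.2 to 36.4, with −12.7 and 36.4 at the IDR setting. The stronger 50% also gave a spacing of 1050.1 kb. The settings with 1 window per peak and the motif odds ratios within classes were chosen after seeing the data. No paired analysis was possible because each group has 1 list, and no replicate could be left out for the same reason. Depth is unknown, which limits what absence from a list shows.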

Other observations

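Over whole SON lists, without regard to HMGB2, the share of promoter windows met that held the NRF1 motif was 21.3%, 27.4% and 36.6% in the order untreated, 3 days and 6 days, and 15.98% for HMGB2. For the CCAAT box the shares were 43.1%, 45.1%, 50.1% and 51.7%. The lists differ in length and share promoters, so these are descriptions of each list.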
